A study of Bos taurus with 40 samples.

Results

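The 214 genes described here had lower transcript levels in the muscle of feed-restricted bulls late in the restriction, and group medians close to the control level by day 15 of renewed full feeding. They were chosen from the measured values themselves. Counts per 1000000 gene counts (CPM) were computed for 24616 genes in 40 libraries. For each gene the median of the restricted group was divided by that of the control group, after adding 0.5 CPM to each, and the log2 of this ratio was taken at both sampling times. A gene was included when its mean level was at least 1 and under 1000 CPM, its restriction ratio was at or under -0.7, and its day 15 ratio lay between -0.4 and 0.4. Of 10959 genes in that range of levels, 315 (2.87%) met the restriction threshold, and 220 of these also met the day 15 limits. From these 220 genes, 6 were dropped because they belong to a list of 11 genes kept out of this set.

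The RNA came from muscle biopsies of male Holstein-Friesian cattle, a dairy breed, with 10 bulls in each of 2 feeding groups sampled at 2 times. Control bulls could eat freely throughout. The restricted group was held to a target gain of 0.6 kg per day for 125 days (period 1) and then fed without limit for 55 days (period 2), on the same 70% concentrate and 30% grass silage ration as the control bulls. Biopsies were taken on day 120 of period 1 and day 15 of period 2, which gave 4 groups of 10 libraries.

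Feed restriction slows the deposition of protein and fat in growing cattle, and muscle then spends less on growth. When feed returns, previously restricted animals commonly grow faster for a time than animals fed throughout, a response called compensatory growth. A muscle biopsy holds muscle fibres together with blood vessels, connective tissue, fat cells and immune cells. In such bulk RNA, fewer cells of a type and less RNA per cell cannot be told apart. The Ensembl gene IDs in the counts are not paired with gene names in the sources used here. The genes are therefore described by their levels and by how they vary, 4 of them under their IDs, and the labelled tissue was not checked against marker genes.

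Since the rule used both feeding comparisons, the ratios that follow describe what was selected. The median restriction log2 ratio of the 214 genes was -0.83, with quartiles of -1.0 and -0.76 and a range of -4.08 to -0.70. Over all 10959 genes in the same range of levels the median was -0.12. At least a 2-fold lower median was found for 56 genes and at least a 4-fold lower median for 2. Most differences were thus modest, and the largest belonged to few genes. At day 15 the median log2 ratio was -0.06, between -0.40 and 0.40 by construction, with 91 genes above 0 and 123 below. Most of the genes were of low abundance, with a median mean level of 6.28 CPM against 10.5 CPM over all genes in the range. The mean level was 1 to under 2 CPM for 24 of them, 2 to under 5 CPM for 62, 5 to under 10 CPM for 57 and 10 to under 50 CPM for 51. A level of 50 to under 100 CPM was found for 10 genes and a higher one for another 10.

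Most genes past the restriction threshold lay inside the day 15 limits. Among the 315 genes past the restriction threshold, 69.8% did so, 73 (23.2%) were still at or under -0.4, and 22 (6.98%) were at or over 0.4. Among all 10959 genes, 91.1% lay inside those limits. In the opposite direction 64 genes had a restriction ratio of at least 0.7, and 32 of these lay inside the day 15 limits. The thresholds cut through a continuous spread of values. The 3 genes nearest the restriction threshold from inside had ratios of -0.708 to -0.70, and the 3 nearest outside were all at -0.699. At the day 15 limits the nearest 3 inside had ratios of 0.383 to 0.396 and -0.399 to -0.395, and the nearest 3 outside 0.403 to 0.411 and -0.407 to -0.403.

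**Figure D1:**
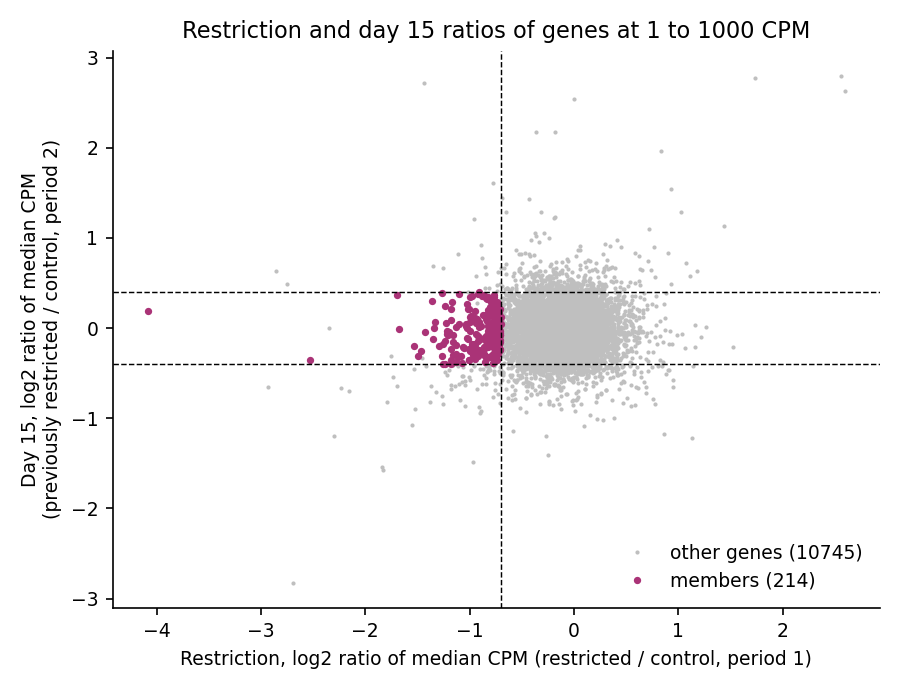
Restriction log2 ratio (horizontal axis) against day 15 log2 ratio (vertical axis) of group median CPM, with 1 point per gene for the 10959 genes at 1 to under 1000 CPM; the 214 selected genes are coloured and dashed lines mark the thresholds. The 214 genes sit at or left of -0.7, most of them between -1.0 and -0.70, and 1 gene lies far to the left at -4.08.

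The lower level in restriction was shared by most animals for most of these genes. As the rule used the medians of these same libraries, the counts below describe the selection. For 138 of the 214 genes each of the 10 restricted libraries was under the median of the control libraries, against 13.7% of all genes in the range. Complete separation, with all 10 restricted libraries below every control library, was seen for 13 genes, against 0.401% of all genes. For 70 genes at least 7 restricted libraries lay below every control library, against 4.52% of all genes, and for 23 genes none did. The 13 separated genes spanned control medians from 1.91 to 341 CPM, so they were not limited to one abundance class. Counts were rarely at 0: 2 of the 214 genes had no count in at least 1 restricted library of period 1, and none lacked counts in a control library of that period.

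Library depth lay between 20.8 M and 33 M gene counts (M, 1000000 counts), with a median of 25.6 M. Reads outside annotated genes made up 13.3% to 18.7% in 33 libraries and 10.0% to 11.2% in the other 7. These 7 libraries were those of control bull 6 and restricted bulls 1 and 9 in period 1, and of control bulls 2, 3 and 8 and restricted bull 10 in period 2. The part of this property in the results was not tested, and values without the 7 libraries are given where it moves with them.

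The 214 genes were summarised in each library as the median of their log2 levels relative to the control median of period 1. In control bulls of period 1 this value had a lowest, median and highest library of -0.55, 0.01 and 0.24. In restricted bulls of period 1 it was -1.10, -0.87 and -0.67, so each restricted library was under the lowest control library. In period 2 the values were -0.70, -0.14 and 0.47 in control bulls and -0.66, -0.15 and 0.04 in previously restricted bulls, and with all 40 libraries the previously restricted ones lay inside the control range. The lowest control library of period 1, the 3 lowest of control period 2, the lowest of restricted period 2 and the 2 lowest of restricted period 1 were the 7 with few reads outside genes. Without them the control libraries of period 1 began at -0.30 and those of period 2 at -0.32, and the restricted libraries of period 1 reached from -0.94 to -0.67. Those of restricted period 2 reached from -0.49 to 0.04, and bulls 7 and 9, at -0.49 and -0.40, then lay below every control library of period 2. The median restriction ratio over the genes was then -0.85 and the median day 15 ratio -0.15, with 153 of 214 genes below 0 at day 15. Summed, the 214 genes made up 4349, 6152 and 7130 CPM (lowest, median and highest library) in control bulls of period 1 and 2876, 3536 and 4011 CPM in restricted bulls. In period 2 they made up 4082, 5750 and 7799 CPM in control bulls and 4133, 5460 and 6227 CPM in previously restricted bulls. Without the 7 libraries the lowest sums of control bulls were 5060 CPM in period 1 and 5447 CPM in period 2. Those of the restricted group were 2876 and 4244 CPM.

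**Figure D2:**
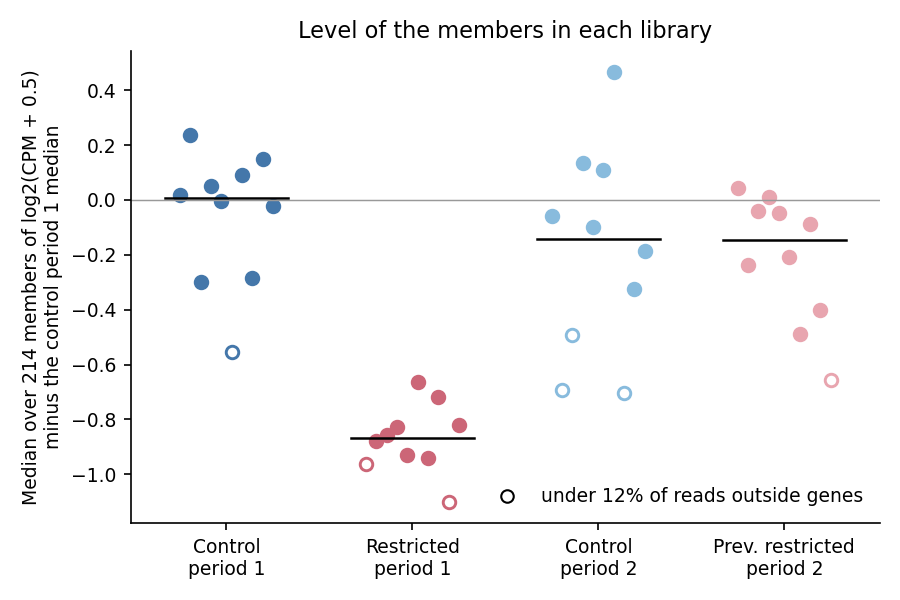
Median over the 214 genes of log2(CPM + 0.5) minus the control period 1 median (vertical axis), with 1 point per library in the 4 groups of 10; bars are group medians and open points are the 7 libraries with under 12% of reads outside genes. Restricted libraries of period 1 lie between -1.10 and -0.67, below all control libraries of that period, and the period 2 groups overlap.

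ENSBTAG00000001344 was one of the 13 genes whose feeding groups separated completely in restriction. In control bulls of period 1 its lowest, median and highest libraries were at 5.97, 8.14 and 20.0 CPM. In restricted bulls they were at 1.19, 2.17 and 4.05 CPM. In period 2 they were at 2.57, 8.05 and 15.9 CPM in control bulls and at 4.67, 10.5 and 16.8 CPM in previously restricted bulls. Every previously restricted library of period 2 thus lay above every restricted library of period 1, and the level was higher in 10 of 10 bulls. The fitted log2 fold change was -2.0 ± 0.26 (SE) in restriction and 2.21 ± 0.26 from period 1 to period 2 in the restricted bulls. Over the same interval it was -0.28 ± 0.25 in the control bulls. At day 15 the fitted value was 0.50 ± 0.25 in favour of the previously restricted bulls.

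ENSBTAG00000007343 was the most abundant of the 214 genes, at a mean of 622 CPM over all libraries. Its control libraries of period 1 had a lowest, median and highest level of 491, 713 and 978 CPM, and its restricted libraries 306, 425 and 624 CPM. These ranges overlapped, and 7 of 10 restricted libraries lay below every control library. In period 2 the values were 569, 639 and 1153 CPM in control bulls and 511, 561 and 870 CPM in previously restricted bulls. The fitted log2 fold change was -0.56 ± 0.16 (SE) in restriction and 0.38 ± 0.16 from period 1 to period 2 in the restricted bulls, of which 9 of 10 were higher in period 2. By group medians, 561 CPM lay nearer to the control value of period 2 than to the restricted value of period 1, but still under the former. At day 15 the fitted value was -0.29 ± 0.16 and the ranges overlapped, so a partial return is not established.

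ENSBTAG00000011666 and ENSBTAG00000001417 had the lowest restriction ratios of the set, -4.08 and -2.53, and both varied widely between animals. ENSBTAG00000011666 had a lowest, median and highest level of 1.94, 18.8 and 242.6 CPM in control bulls of period 1 and of 0.193, 0.636 and 45.1 CPM in restricted bulls. In period 2 it had 2.38, 7.99 and 186.3 CPM in control bulls and 1.35, 9.19 and 25.1 CPM in previously restricted bulls. Control bull 4 was the highest of control period 1, control bull 6 the highest of control period 2 and restricted bull 1 the highest of restricted period 1. The other 9 libraries of those groups reached 89.5, 22.5 and 15.4 CPM. For this gene 7 of 10 restricted libraries lay below every control library, and 9 of 10 restricted bulls were higher in period 2. The fitted log2 fold change in restriction was -2.57 ± 0.93 (SE). It was -1.64 without the library of control bull 4 and -3.82 without that of restricted bull 1. From period 1 to period 2 the restricted bulls had a fitted value of 0.35 ± 0.90, and 1.62 without the period 1 library of restricted bull 1. That value was unstable: it was 2.12 with the replicate block in edgeR, 2.43 by limma with voom and the block, and 1.60 without the 7 libraries. Leaving out any other single library gave 0.09 (restricted bull 4 in period 2) to 0.53 (restricted bull 6 in period 1). The fit follows group means, in which that library weighs heavily, whereas the rule follows group medians. At day 15 the fitted value was -1.37 ± 0.90, whereas the log2 ratio of group medians was 0.19.

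ENSBTAG00000001417 followed the same animals. Its lowest, median and highest levels were 1.01, 4.11 and 27.4 CPM in control bulls and 0.143, 0.30 and 9.31 CPM in restricted bulls of period 1. In period 2 they were 0.718, 2.08 and 27.1 CPM in control bulls and 0.254, 1.53 and 3.34 CPM in previously restricted bulls. The highest libraries were again those of control bull 4, restricted bull 1 and control bull 6. The fitted log2 fold change in restriction was -1.74 ± 0.73 (SE), -1.11 without control bull 4 and -2.59 without restricted bull 1. From period 1 to period 2 the restricted bulls had a fitted value of -0.37 ± 0.74 although the group median was higher in period 2 and 6 of 10 bulls were higher. The direction of that fit turned with the replicate block (0.57) and without the period 1 library of restricted bull 1 (0.50). At day 15 the fitted value was -1.68 ± 0.73, near the value in restriction. The difference between the changes of both feeding groups over time was 0.06 ± 1.02. For this gene the fitted means therefore did not show the gap closing, unlike the group medians.

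**Figure D3:**
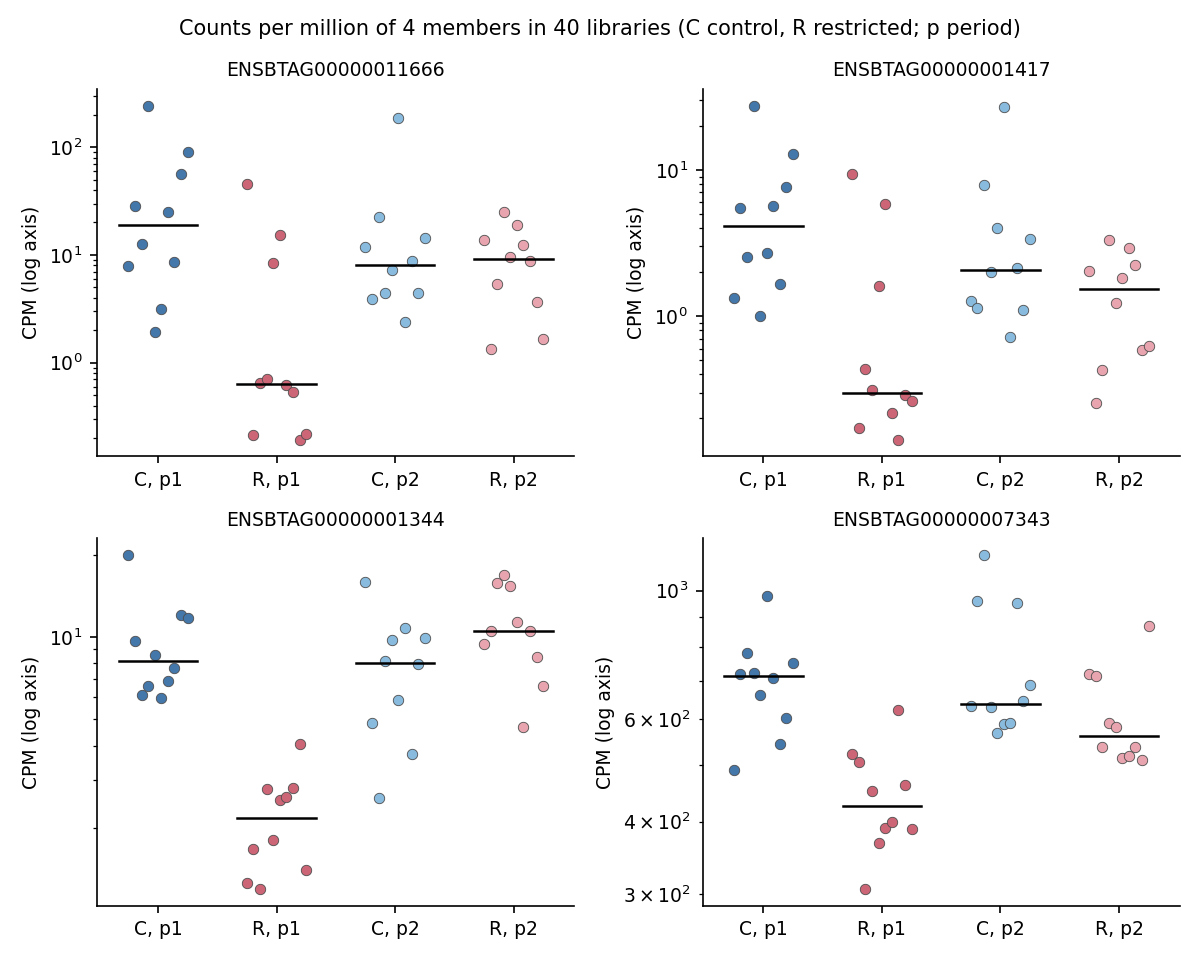
CPM (log axis) of 4 of the genes in each of the 40 libraries, by feeding group (C control, R restricted or previously restricted) and period (p); bars are group medians. ENSBTAG00000001344 has 10 restricted libraries of period 1 at 1.19 to 4.05 CPM under all control libraries of that period, while ENSBTAG00000011666 spreads from 0.193 to 242.6 CPM with single high libraries in 3 groups.

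The closing of the gap between the sampling times came mostly from higher levels in the refed bulls. From period 1 to period 2 the median level in restricted bulls was higher for 212 of the 214 genes, with a median log2 change of 0.74 and a range of -0.37 to 3.09. The median over all genes in the range was 0.09. In control bulls, which ate freely throughout, 158 of the 214 genes had a lower median in period 2, with a median log2 change of -0.17 and a range of -1.18 to 0.91, against -0.02 over all genes. Some of the gap therefore closed from the control side. The higher level in restricted bulls made up at least 75% of the closing for 122 genes. For 30 genes the lower control median of period 2 made up more of the closing than the restricted bulls did, and for 2 genes the restricted median was itself lower in period 2. All 4 group medians entered the rule, so these changes describe the selection. Without the 7 libraries the control change was -0.06, with 129 genes lower, and the change in restricted bulls stayed at 0.74.

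**Figure D4:**
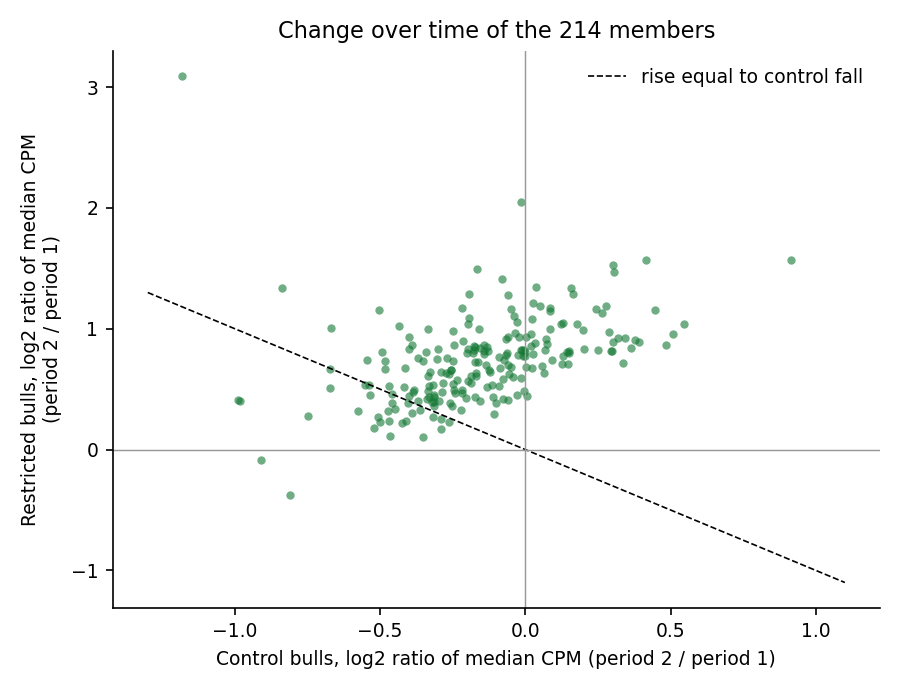
Log2 ratio of group median CPM, period 2 over period 1, in control bulls (horizontal axis) and restricted bulls (vertical axis), with 1 point for each of the 214 genes; points under the dashed line have a control decrease larger than the restricted increase. All but 2 genes lie above 0 on the vertical axis, and 158 lie left of 0 on the horizontal axis.

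Animal by animal, the direction over time was uniform in the refed bulls and mixed in the control bulls. The medians of these same libraries entered the rule. A rise in most refed bulls, and its excess over all genes, therefore describes the selection. The median log2 change over the 214 genes was above 0 in 10 of 10 restricted bulls, with a lowest, median and highest value of 0.20, 0.66 and 1.03. The lowest was that of bull 10 and the highest that of bull 1, which each have 1 library among the 7 described above. The 7 restricted bulls with no such library lay between 0.45 and 0.98. In control bulls the lowest, median and highest values were -1.07, -0.01 and 0.79, with 4 of 10 above 0. The extremes were again bulls 2 and 6, with 1 such library each, and the 6 control bulls without one lay between -0.47 and 0.39. At the level of single genes, 70 of the 214 were higher in period 2 in 10 of 10 restricted bulls, against 6.08% of all genes in the range, and 183 were higher in at least 8 bulls, against 31.7%. In 5 bulls or fewer 7 were higher, against 40.0% of all genes. In control bulls 23 genes (10.7%) were lower in at least 8 of 10, against 11.1% of all genes, and 0 were lower in all 10. That share was close to the share of all genes.

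A fit of all 12753 genes with adequate counts, by edgeR's quasi-likelihood test with Benjamini-Hochberg adjustment over all of them at 0.05, gave the same genes a second description on the scale of fitted means. All 214 genes were in the fit. As the groups that entered the rule are those compared, the counts are not evidence on the genes. In restriction 140 of the 214 passed, all lower, where 5.3% of all genes passed as lower, and the median fitted log2 fold change was -0.76 (range -2.58 to -0.28) against -0.04 over all genes. Genes that did not pass had larger errors: their median SE was 0.28, against 0.20 in those that passed, at a median mean level of 7.71 and 6.02 CPM. Genes that passed thus had the smaller errors, at a slightly lower median level.

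At day 15, where 7.2% of all genes passed, 0 of the 214 did so in edgeR, and 24 had an unadjusted p under 0.05, which 23.3% of all genes had. DESeq2 called 4, where it called 8.38% of all genes, and limma with voom 1, where it called 6.69%. The median fitted log2 fold change was -0.09, with a range of -1.69 to 0.50 and a median SE of 0.22. Differences of a size near that error could not be detected in single genes, so the count of 0 does not show that the levels were equal. From period 1 to period 2 in the restricted bulls 111 genes passed, all higher, where 9.81% of all genes passed as higher, with a median of 0.65. In the control bulls 0 passed in edgeR, where 0.0392% of all genes did, 22 had an unadjusted p under 0.05, against 19.1% of all genes, and DESeq2 called 2, against 0.863%. The difference between the changes of both feeding groups over time, the interaction, passed for 53 genes, all with a more positive change in the restricted bulls, where 3.02% of all genes passed in that direction. Its median was 0.69.

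Within groups the 214 genes had larger SDs between animals than all genes of that range of levels. A rule on differences of group medians can favour genes with a wide spread. Their median level was also lower, at 6.28 against 10.5 CPM. The part of the selection and of the level in the larger SDs was not tested. The median SD of the log2 levels of the 214 genes was 0.50 in control bulls and 0.43 in restricted bulls of period 1, against 0.29 and 0.28 over all genes. In period 2 it was 0.61 in control and 0.42 in previously restricted bulls, against 0.36 and 0.27. A smaller SD in restricted than in control bulls was found in period 1 for 155 of the 214 genes (72.4%), against 50.7% of all genes. In period 2 the share was 85.0%, close to the 81.3% of all genes. In period 2 a smaller SD in previously restricted than in control bulls was thus common across all genes, and neither difference was tested. The SD of the library medians of the 214 genes was 0.376 in control bulls of period 2, and 0.258 without the 7 libraries. In previously restricted bulls it was 0.235, and 0.186 without them. Shares of single genes without the 7 libraries are not given here.

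The genes also differed in which animals carried the high levels. Deviations of log2 levels from the group means were correlated between genes over the 40 libraries, and the 214 genes were divided into 6 sets by average linkage. These correlations share library and depth, and the sets are a description. The median correlation over 22791 pairs was 0.23 (quartiles 0.02 and 0.46) against 0.15 over all genes in the range, and 0.18 without the 7 libraries. The set is therefore not a single block of genes that move together in every animal. The largest set held 165 genes, the next 28, another 12, and the other 3 held 5, 2 and 2.

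The set of 165 genes carried the common pattern. Its summed level had a lowest, median and highest library of 2415, 4436 and 5058 CPM in control and 1759, 2395 and 3157 CPM in restricted bulls of period 1. In period 2 these were 2270, 4010 and 6218 CPM in control and 2384, 3854 and 4745 CPM in previously restricted bulls. Its genes were lower in the 7 libraries with few reads outside genes, by a median deviation of -0.52, and their median correlation of 0.37 was 0.26 without those libraries. Without them the lowest summed levels of control bulls were 3435 CPM in period 1 and 3904 CPM in period 2. In the restricted group they were 1996 and 2889 CPM. Each restricted library of period 1 was then below every control library of that period. ENSBTAG00000001344 belongs to this set.

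The set of 28 genes followed single animals, and held ENSBTAG00000011666 and ENSBTAG00000001417. Its summed level had a lowest, median and highest library of 375, 458 and 1800 CPM in control bulls and 188, 252 and 597 CPM in restricted bulls of period 1. In period 2 these were 356, 457 and 1288 CPM in control and 275, 425 and 687 CPM in previously restricted bulls. Control bull 4 was highest in period 1, with the next at 904 CPM, and control bull 6 in period 2, with the next at 639 CPM. Restricted bull 1 was highest in restriction, with the next at 373 CPM. In these control bulls the high level was seen at 1 of the 2 times: the mean log2 deviation of the set was 1.74 in control bull 4 in period 1 and -0.33 in period 2, and in control bull 6 it was -0.60 and then 1.68. The median SD of log2 levels of these genes was 0.97 in control bulls of period 1, and their median correlation with each other was 0.46, or 0.51 without the 7 libraries. The median restriction ratio of this set was the lower one, at -1.04 against -0.82 in the set of 165. Yet a smaller share of its genes passed in edgeR as lower in restriction, 12 of 28 against 112 of 165. Over all genes the share was 5.3%. From period 1 to period 2 in restricted bulls 7 of 28 passed as higher, against 88 of 165 and 9.81% of all genes. The rule used these groups, so the counts describe the selection. Of the 11 genes kept out by design, 7 correlated with the mean of this set at 0.87 to 0.98 over the 40 libraries, and the other 4 at 0.29 to 0.47.

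The set of 12 genes, with ENSBTAG00000007343 in it, had the opposite relation to the 7 libraries. Its genes had a median correlation of -0.14 with the other genes and were higher in the 7 libraries, by a median deviation of 0.34. The summed level had a lowest, median and highest library of 656, 869 and 1181 CPM in control and 387, 520 and 750 CPM in restricted bulls of period 1. In period 2 these were 735, 814 and 1365 CPM in control and 661, 717 and 1118 CPM in previously restricted bulls. Without the 7 libraries the highest control library was at 935.5 CPM in period 1 and 836.5 CPM in period 2. The highest previously restricted library was then at 905.5 CPM. The level over time in control bulls had a median log2 change of 0.27 in this set, against -0.19 in both larger sets. In edgeR 9 of the 12 passed as lower in restriction, against 5.3% of all genes. From period 1 to period 2 in the restricted bulls 9 passed as higher, against 9.81% of all genes. The rule limits the feeding ratio of each gene at both times. It does not set the change over time within a feeding group.

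**Figure D5:**
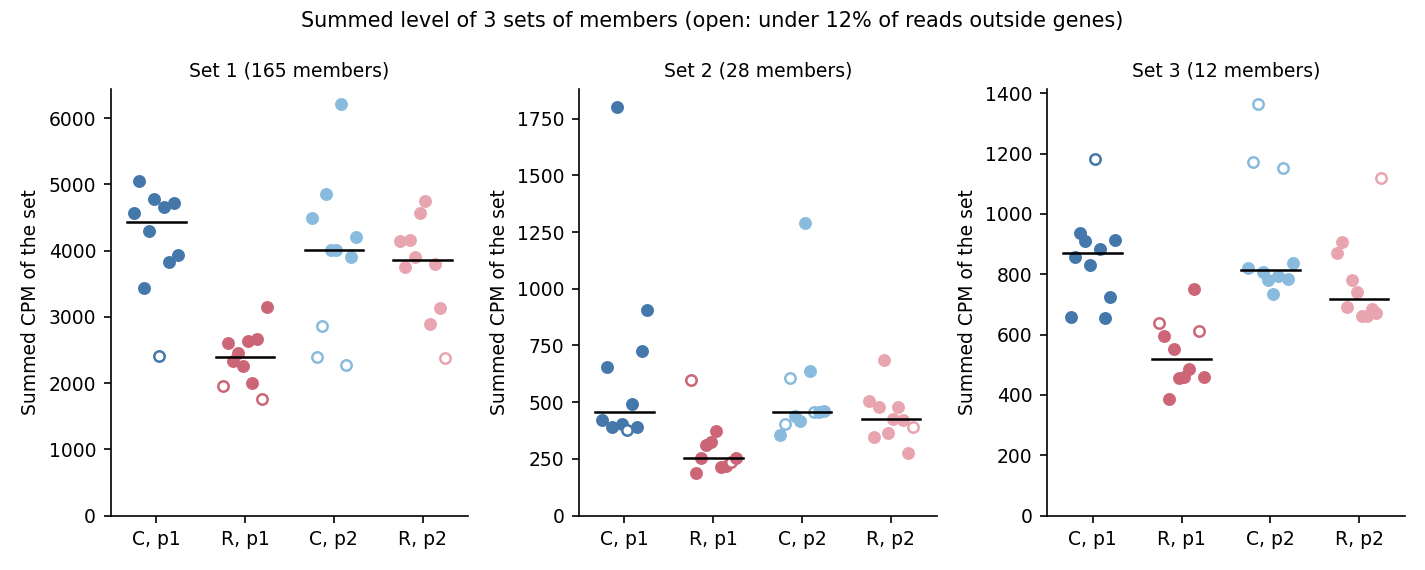
Summed CPM of the 3 largest sets of the 214 genes in each of the 40 libraries, by feeding group (C control, R restricted or previously restricted) and period (p); bars are group medians and open points are the 7 libraries with under 12% of reads outside genes. The set of 165 genes is low and the set of 12 is high in most open points, and the set of 28 has single high libraries at 1800, 597 and 1288 CPM.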

How the data were processed

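The authors' deposited files give whole-number read counts per gene for each library, in the layout that HTSeq writes. CASAVA 1.4, TopHat, HTSeq, edgeR and the UMD3.1 assembly are listed in the submitters' processing notes; further settings were not given in the sources used here. Entries without a gene were dropped before scaling and testing: reads outside genes were 10.0% to 18.7% and ambiguous reads 0.584% to 1.40% of a library, and 92 spike-in entries were all at 0. The deposited normalised values were not used. No pair of libraries in a group agreed within sampling noise (smallest chi-square per gene 22.8 over 180 pairs). The counts carry no molecular identifiers, so depth bounds counting error only.

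From the counts, CPM, group medians and the selection rule were computed in Python 3.11.15. Counts were fitted with edgeR 4.0.16 in R 4.3.3 (TMM scaling, filterByExpr at a minimum count of 10 and a total of 15, robust quasi-likelihood F test, all 40 libraries, 4 group means). DESeq2 1.42.0, limma 3.58.1 with voom, total-count scaling, no filter, a term for 7 libraries, their removal, a replicate block and leaving out each library were alternatives. The fitting code was tested on simulated counts, with a dispersion of 0.06 for every gene and changes in restriction only. It recovered 97.9% of genes with a log2 change of 1 and 26.4% of those with 0.5. Of 129 calls, 9 were false. Other comparisons, and genes with a wider spread, were not simulated. Group medians and fitted means can differ where 1 animal is far from the others, and scaling matters: total counts gave a median restriction log2 fold change of -0.14 over all genes, against -0.04 with TMM.

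Bulls were taken as the same animals at both times because title numbers repeat. Same-numbered libraries correlated at 0.11 to 0.45 (control) and 0.21 to 0.43 (restricted) in their deviations from group means with a term for the 7 libraries removed, so all 10 pairs of each group were above 0.1. Without the term 7 pairs of each group were. The protocols differ on the number of bulls, with 20 in total in one text and 20 for each feeding group in another.

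Members, lists and alternatives were chosen with earlier results of these data known. The planned naming rule (lowest restriction ratio, highest level, most complete separation) was limited to 4 genes given by ID, since 0 of 24616 IDs matched a gene name. Lists by gene name, marker checks, gene sequences and promoter motifs were not used here.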

Additional observations from a re-analysis of the deposited data

Results flagged for a closer look

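In 28 group comparisons of single values within 10 libraries, 9 held a library far outside the others. The threshold gives about 1 in 20 for normally distributed values. Named genes and summed levels were compared as CPM without a log, where a few high values stretch the scale. That rate therefore does not apply to them, and the count of 9 is not read as an excess. For the summed level of the set of 28 genes these were control bull 4 in period 1 at 1800 CPM, restricted bull 1 in period 1 at 597 CPM and control bull 6 in period 2 at 1288 CPM. The same 3 libraries stood out for ENSBTAG00000011666, at 242.6, 45.1 and 186.3 CPM. For ENSBTAG00000001417 control bull 4 in period 1 stood out at 27.4 CPM and control bull 6 in period 2 at 27.1 CPM. These values are not independent, since both genes belong to that set. For ENSBTAG00000001344 control bull 1 in period 1 stood out at 20.0 CPM, with the next library at 12.0 CPM.

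The change over time differed between the feeding groups, by the edgeR interaction, for 53 of the 214 genes. All 53 were more positive in the restricted bulls, a direction in which 3.02% of all genes passed. ENSBTAG00000001344 was among the 53, with a log2 difference of 2.50 ± 0.36 (SE). The rule that chose the genes used both feeding comparisons, so these values are a description.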

How the results depend on the processing

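Counts of genes that passed in restriction (123 to 162), from period 1 to period 2 in restricted bulls (99 to 128) and in the interaction (43 to 72) stayed within 1.5 times under each alternative, the replicate block included (113 and 72 for the latter 2 in edgeR). Leaving out single libraries gave 113 to 146, 95 to 115 and 41 to 63. At day 15, where edgeR called 0 genes, DESeq2 called 4, limma with voom and the replicate block 1, total counts 1, the term for the 7 libraries 5, their removal 2, and leaving out single libraries 0 to 3. For control bulls over time the counts were 2, 1, 1, 1, 1 and 0 to 3, and 0 with the edgeR replicate block. The 3 genes at day 15 came without control bull 6 in period 2, and those over time without control bull 6 in period 1 or control bull 9 in period 2. The rule gave 135 genes (121 shared with the 214) with TMM library sizes, 174 (116 shared) with group means, 291 (198 shared) and 155 (147 shared) with 0.1 and 1 CPM added, 227 (157 shared) without the 7 libraries and 196 to 257 without single libraries. The change of ENSBTAG00000001417 from period 1 to period 2 in restricted bulls, -0.37, turned to 0.94 with voom and the replicate block, 0.57 with the edgeR replicate block, 0.48 without the 7 libraries, and 0.50 and 0.01 without restricted bulls 1 and 6 in period 1 (range -0.55 to 0.50). The cause was not tested. The block changed no other call of a named gene's direction. The median SE of 0.22 at day 15 limits what single genes can show.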
